A study of Mus musculus with 6 samples.

Results

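Small RNA silencing in mouse oocytes was followed through 10 genes, taken by symbol from the 53465 Ensembl genes of the count table. They were *Drosha*, *Dgcr8* and *Dicer1*, which make small RNAs, the Argonaute genes *Ago1*, *Ago2*, *Ago3* and *Ago4*, whose proteins carry them, and *Tnrc6a*, *Tnrc6b* and *Tnrc6c*, whose proteins carry out repression. The list was drawn up because *Tnrc6a* differed between control and quercetin pools in some tests. Comparisons of these 10 genes between the groups are therefore given as descriptions, with p-values of the fits printed beside some of them. The exception is the shares of the Argonaute genes, which were compared by a permutation test. RNA was sequenced from 6 pools of M II oocytes, mature eggs arrested at metaphase of the second meiotic division, taken from naturally aged Kun Ming (KM) female mice of 9 to 10 months. Each pool combined 15 oocytes from 3 mice. All mice had been primed with gonadotropin (PMSG) before collection. For 3 pools, immature oocytes stripped of cumulus cells had matured in vitro for 16 h in M16 medium without quercetin. For the other 3 the medium held 10 μM quercetin, a plant flavonol with antioxidant activity. The quercetin had been dissolved in DMSO, and the paper does not say whether the control medium held DMSO. Neither group included young mice, and the labels do not say whether any mouse gave oocytes to more than 1 pool, so the spread between pools may be partly technical.

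MicroRNAs are cut in 2 steps: Drosha with its partner Dgcr8 releases a hairpin in the nucleus, and Dicer1 trims it to a short duplex in the cytoplasm. Dicer1 also cuts long double-stranded RNA into small interfering RNAs, which are abundant in mouse oocytes. An Argonaute protein holds the small RNA and finds the matching mRNA. Ago2 can slice a fully matched target, and TNRC6 (GW182) proteins bridge Argonaute to deadenylases and translational repressors. Mouse oocytes tolerate loss of *Dgcr8* but not of *Dicer1*, and they make a shortened Dicer1 from an oocyte start site, which counts per gene cannot tell from the full-length form.

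Some members carry microRNA hairpins in their own exons, and Drosha with Dgcr8 is known to cut the hairpins of the *Dgcr8* mRNA. They are shown because a read there lies at once in a member and in a separately annotated microRNA gene. The mature sequences (RefSeq, GRCm38.p6) follow from 5′ to 3′, with the seed, bases 2 to 8, in capitals.
mmu-miR-1306-5p: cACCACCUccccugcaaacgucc
mmu-miR-1306-3p: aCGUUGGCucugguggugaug
mmu-miR-3618-5p: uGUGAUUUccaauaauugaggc
mmu-miR-3618-3p: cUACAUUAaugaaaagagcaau
mmu-miR-5113: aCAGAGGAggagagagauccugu
The miR-1306 arms lie in coding sequence of *Dgcr8* (minus strand, chr16:18284288-18284310 and chr16:18284248-18284268), and the miR-3618 arms in exonic sequence of *Dgcr8* outside the coding part (chr16:18284602-18284623 and chr16:18284562-18284583). The miR-5113 sequence lies in a *Tnrc6b* exon outside the coding part (plus strand, chr15:80940049-80940071). No seed is shared between them. The separately annotated hairpin genes held 0 or 1 count in every pool. The kit copies polyadenylated RNA, so mature microRNAs were not measured.

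The pools held 7880467 to 9938743 counts. All 10 oocyte marker genes were present, with a summed level of 18620 to 21248 CPM in control pools and 21221 to 22557 CPM in quercetin pools, where CPM is the count over the library total in units of 1000000 counts, after TMM scaling for composition. Single oocyte markers varied more between pools than this sum, as with *Zp2*, at 223, 1560 and 630 CPM in control pools 1 to 3 and 131, 848 and 1325 CPM in quercetin pools 1 to 3. Of the 10, *Ooep* alone had an unadjusted p under 0.05 (log2 fold change -0.92, standard error 0.38, adjusted p = 0.988 in edgeR's quasi-likelihood test), and its lowest pools were quercetin 1 and 2. The 12 cumulus and granulosa markers summed to 62.8 to 78.5 CPM in control pools and 79.8 to 85.2 CPM in quercetin pools. Most of this was *Cyp19a1* (69.5 CPM on average), while *Ptx3*, *Foxl2* and *Amhr2* had 0 counts in every pool. *Cyp19a1* stood at 58.4 to 68.9 CPM in control pools and 73.1 to 75.9 CPM in quercetin pools, and its groups did not overlap, while the other 11 markers summed to 4.33 to 11.2 and 6.71 to 10.3 CPM and overlapped. The part of *Cyp19a1* or of the summed level in the values of the members was not tested. The 7 blood and stroma markers summed to 3.38 CPM or less. The pools did not part by group on the first principal component (32.4% of the variance). Quercetin pools 1 and 2 stood at -37.9 and -30.9, away from quercetin pool 3 at 30.8 and the control pools at -3.34, 31.3 and 10.1.

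Levels were compared between genes per kilobase (kb) of exon, since a longer mRNA gives more reads. *Dicer1* was the most abundant member, at 17.7 CPM per kb on average over the 6 pools, and stood above 79.9% of the tested genes with a known length. *Ago3* followed with 7.68 CPM per kb. *Tnrc6b* (2.09), *Drosha* (1.74), *Tnrc6a* (0.997), *Tnrc6c* (0.716) and *Ago2* (0.567 CPM per kb) came next. *Dgcr8* stood at 0.248, *Ago4* at 0.0917 and *Ago1* at 0.0260 CPM per kb. The order was the same in the control and the quercetin pools, except that *Tnrc6c* stood above *Tnrc6a* with quercetin.

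Neighbours in this order were compared within each pool. Every pool kept the order for 4 of the 9 pairs, which were *Dicer1* over *Ago3*, *Ago3* over *Tnrc6b*, *Ago2* over *Dgcr8*, and *Dgcr8* over *Ago4*. For these pairs the geometric mean of the ratio per kb was 2.26, 3.70, 2.28 and 2.84 (exact sign-flip permutation test over 6 pools, two-sided p = 0.0312, the smallest that 6 pools allow, and 0.0703 after Benjamini-Hochberg adjustment over the 9 pairs). No pair passed an adjusted p of 0.05. *Tnrc6b* and *Drosha*, *Drosha* and *Tnrc6a*, *Tnrc6c* and *Ago2*, and *Ago4* and *Ago1* kept their order in 5 of 6 pools. The spread between pools did not separate these neighbours. *Tnrc6a* stood above *Tnrc6c* in 3 of 6 pools, which were the control pools, and under it in the quercetin pools. The test over all pools mixes these groups for that pair.

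**Figure D1:**
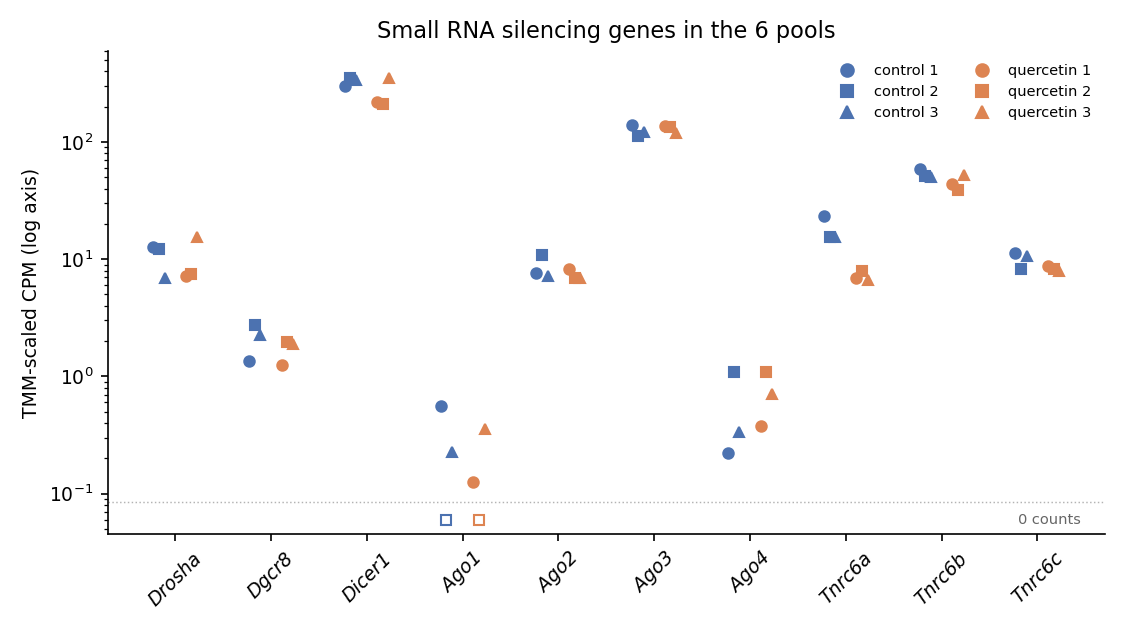
TMM-scaled CPM (log axis) of the 10 genes in each pool, with control pools in blue and quercetin pools in orange, and a symbol for each replicate number. Open symbols under the dotted line mark 0 counts. *Dicer1* and *Ago3* lie on top in every pool, *Ago1* and *Ago4* at the bottom, and *Tnrc6a* is the gene whose groups do not overlap.

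The nuclear processing genes were sparse beside *Dicer1*. *Drosha* (ENSMUSG00000022191, GRCm38 chr15:12824815-12935291, plus strand), the nuclear RNase III, had 114, 102 and 61 counts in control pools 1 to 3 and 57, 68 and 132 in quercetin pools 1 to 3. The high and the low pools were mixed between the groups, with 10.6 ± 3.28 CPM in control and 10.0 ± 4.76 CPM in quercetin pools (SD over 3 pools). The fitted log2 fold change, quercetin over control, was -0.08 (standard error 0.37). *Dgcr8* (ENSMUSG00000022718, chr16:18253948-18289246, minus strand), the RNA-binding partner of Drosha, had 12, 23 and 20 counts in the control pools against 10, 18 and 16 in the quercetin pools. These counts overlapped between the groups (log2 fold change -0.31, standard error 0.41, and from -0.55 without control pool 1 to -0.072 without control pool 2). Of its exon length, 17.1% overlaps other annotated genes, most of it *Trmt2a* on the other strand, so some of its few reads could belong there. Per kb, *Drosha* exceeded *Dgcr8* by 3.95 to 12.3 times in the 6 pools.

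*Dicer1* (ENSMUSG00000041415, chr12:104687742-104751952, minus strand) had 2670, 2936 and 3022 counts in the control pools against 1756, 1911 and 2995 in the quercetin pools. Quercetin pools 1 and 2 lay under every control pool, at 220 and 209.6 CPM against 299.6 to 353 CPM, while quercetin pool 3, at 352.5 CPM, matched the highest control pool. The mean was 331 ± 27.8 CPM in control and 261 ± 79.7 CPM in quercetin pools (SD, n = 3). The fitted log2 change was -0.34 (standard error 0.21). The pools that were low in *Dicer1* are those that stood apart on the first principal component. Without them the log2 fold change was 0.092 (standard error 0.17), with the remaining quercetin pool assumed to vary like the controls, in a comparison chosen after seeing the data. Without quercetin pool 3 instead, it was -0.62 (standard error 0.13, adjusted p = 0.198 in edgeR's quasi-likelihood test). *Drosha* had the same low pools within the quercetin group, and its log2 fold change was 0.55 (standard error 0.39) without them and -0.54 (standard error 0.32) without quercetin pool 3. Per kb, *Dicer1* was 8.04 to 17.6 times as abundant as *Drosha* in the 6 pools.

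*Ago3* held most of the Argonaute reads. *Ago3* (ENSMUSG00000028842, chr4:126331704-126429556, minus strand) had 1244, 935 and 1085 counts in the control pools against 1097, 1212 and 1009 in the quercetin pools. The groups overlapped fully, at 125 ± 13.8 and 130 ± 9.74 CPM (SD, n = 3), and the log2 fold change was 0.06 (standard error 0.15), which turned to -0.031 when counts were scaled by library size only. *Ago2* (ENSMUSG00000036698, chr15:73095844-73184935, minus strand), the slicing Argonaute, had 68, 90 and 64 counts in the control pools against 66, 63 and 59 in the quercetin pools. The groups overlapped, since only control pool 2 stood higher, and the log2 fold change was -0.21 (standard error 0.26), or -0.0072 (standard error 0.28) without that pool. Of the 31-base words in *Ago2* transcripts, 7.27% also occur in other genes, mostly *Gm6088*. Per kb, *Ago3* exceeded *Ago2* by 8.80 to 16.3 times.

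*Ago1* and *Ago4* lie beside *Ago3* on chromosome 4, all on the minus strand and within 202 kb. *Ago1* (ENSMUSG00000041530, chr4:126435012-126468583) lies 5.46 kb from *Ago3* and had 5, 0 and 2 counts in the control pools against 1, 0 and 3 in the quercetin pools. A count of 0 allows a level of up to 0.381 CPM in control pool 2 and 0.302 CPM in quercetin pool 2 (3 counts of the unscaled total, counting error only, since amplified reads are not independent molecules). *Ago4* (ENSMUSG00000042500, chr4:126489541-126533472) had 2, 9 and 3 counts in the control pools against 3, 10 and 6 in the quercetin pools. Both had too few counts to pass the filter of the main fit. Fitted with every gene of at least 1 count, their log2 fold changes were -0.69 (standard error 1.32) for *Ago1* and 0.44 (standard error 0.73) for *Ago4*, with adjusted p-values of 0.958 and 0.941 in edgeR's quasi-likelihood test, so no difference between the groups was detectable at this depth. The 3 neighbouring genes thus spanned from nearly no reads to 935 counts or more in every pool.

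As a share of all Argonaute counts, *Ago3* made up 92.9% ± 2.17 in control and 94.0% ± 0.316 in quercetin pools (SD, n = 3). The share of *Ago2* was 5.16%, 8.70% and 5.55% in the control pools against 5.66%, 4.90% and 5.48% in quercetin pools. Only control pool 2 stood out, with an exact 95% binomial interval of 7.06% to 10.6%. No difference between the groups was detected in the *Ago2* share (exact permutation test, two-sided p = 0.5). Benjamini-Hochberg adjustment of this test over the 4 Argonaute shares gave 0.8, and 0.1 is the smallest p that 3 against 3 pools allow. Summed over the 4 genes, Argonaute mRNA stood at 134 ± 12.4 CPM in control and 138 ± 10.0 CPM in quercetin pools (SD, n = 3).

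**Figure D2:**
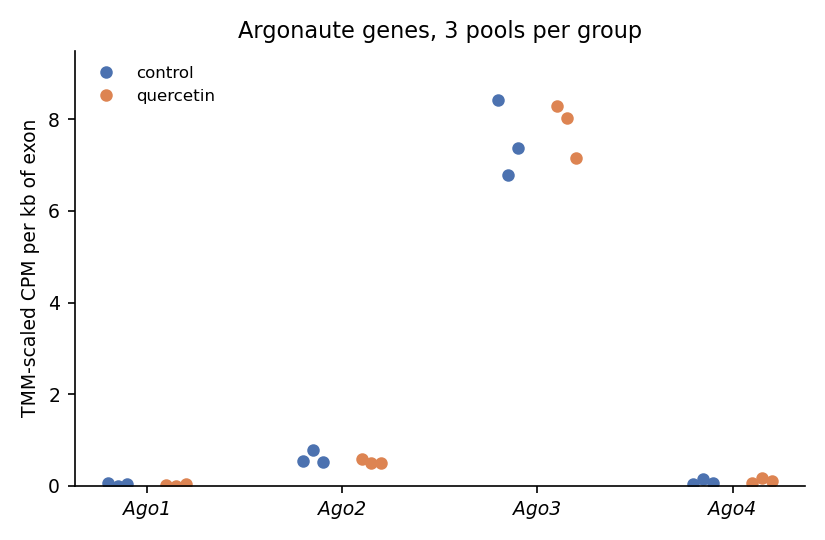
TMM-scaled CPM per kb of exon for the 4 Argonaute genes, with 1 point for each pool. *Ago3* lies between 6.78 and 8.42 in every pool, *Ago2* between 0.492 and 0.771, and *Ago1* and *Ago4* at 0.158 or less.

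*Tnrc6a* (ENSMUSG00000052707, chr7:123123885-123195296, plus strand), which encodes a GW182 scaffold protein, is the gene for which the list was drawn up. It had 210, 128 and 138 counts in the control pools against 55, 72 and 57 in the quercetin pools. Every quercetin pool lay under every control pool, at 6.71 to 7.9 CPM against 15.4 to 23.6 CPM, and the 3 quercetin pools lay close together. The mean was 18.2 ± 4.68 CPM in control and 7.17 ± 0.640 CPM in quercetin pools (SD, n = 3). The fitted log2 change was -1.34 (standard error 0.25), or 2.53 times lower with quercetin. In pooled oocytes, less of the mRNA in every oocyte and fewer oocytes that hold it cannot be told apart. Since the kit copies polyadenylated RNA, a change in poly(A) tails cannot be told apart from a change in the amount of mRNA either. Of its exon length 1.12% overlaps another gene, and 1.01% of its 31-base words occur elsewhere.

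The fitted changes of the paralogues were smaller, which is a description only. *Tnrc6b* (ENSMUSG00000047888, chr15:80711313-80941085, plus strand) had 526, 430 and 444 counts in the control pools against 350, 358 and 447 in the quercetin pools. Quercetin pools 1 and 2 lay lowest, and quercetin pool 3 lay among the control pools (log2 fold change -0.24, standard error 0.18). Without quercetin pools 1 and 2 the log2 fold change of *Tnrc6b* was -0.03, and that of *Tnrc6a* was -1.43. This comparison was chosen after seeing the data and leaves only quercetin pool 3, so it holds no spread between quercetin pools. Since *Tnrc6a* was also chosen on the contrast of the groups, no difference between the paralogues is read from it. *Tnrc6c* (ENSMUSG00000025571, chr11:117654289-117763439, plus strand) had 101, 69 and 95 counts in the control pools against 70, 75 and 67 in the quercetin pools. Its groups overlapped through control pool 2 (log2 fold change -0.29, standard error 0.23).

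Set against its paralogues within each pool, *Tnrc6a* gives a measure that no library scaling can move. It held 25.1%, 20.4% and 20.4% of all *Tnrc6* counts in the control pools against 11.6%, 14.3% and 9.98% in quercetin pools. The highest quercetin share, with an exact 95% binomial interval of 11.3% to 17.6%, lay under the lowest control share, with an interval of 17.4% to 23.6%, although these intervals cover counting error only and meet at their ends. Per kb, the ratio of *Tnrc6a* to *Tnrc6c* was 1.47 to 2.10 in control pools and 0.794 to 0.970 in quercetin pools, so the order of these genes was opposite in the groups. The ratio of *Tnrc6b* to *Tnrc6c* overlapped between the groups, at 2.54 to 3.38 in control pools and 2.59 to 3.62 in quercetin pools. The share of *Tnrc6b* went from 65.7% ± 2.87 to 74.3% ± 3.73, and that of *Tnrc6c* from 12.4% ± 1.54 to 13.8% ± 1.77 (SD, n = 3). Summed *Tnrc6* mRNA was 81.8 ± 10.5 CPM in control and 60.7 ± 6.0 CPM in quercetin pools (SD, n = 3). The difference between *Tnrc6a* and its paralogues was not tested, because *Tnrc6a* was chosen for it.

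**Figure D3:**
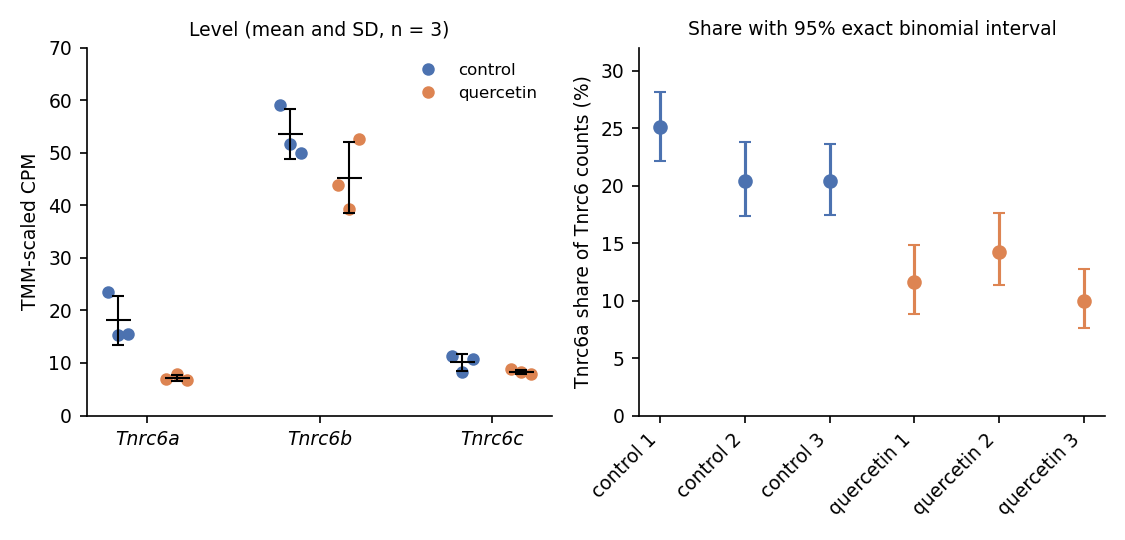
Left, TMM-scaled CPM of the 3 *Tnrc6* genes, with 1 point for each pool and the mean and SD in black. Right, the share of *Tnrc6* counts on *Tnrc6a* in each pool with its 95% exact binomial interval, from 20.4% to 25.1% in control pools and from 9.98% to 14.3% in quercetin pools.

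Over all members, 8 of the 10 passed the filter on low counts, and 7 of these had a lower and 1 a higher fitted level with quercetin. The median log2 fold change of the 8 was -0.26, beside -0.03 over all 11842 tested genes, of which 53.6% had a lower fitted level. With adjusted p-values held under 0.05 and more than a 2-fold change, 0 of the 8 were called by edgeR's quasi-likelihood test, as were 0% of all tested genes. At an unadjusted p under 0.05 the test picked 1 of the 8, *Tnrc6a*, beside 4.03% of all tested genes (1.89% with quercetin lower, and 0.608% lower by more than 2-fold). Pools of the groups did not overlap for *Tnrc6a* alone among the 8, with quercetin lower, as for 5.17% of all tested genes. Nothing is read from these counts, since *Tnrc6a* was chosen on this contrast. The other 7 tested members had log2 fold changes from -0.34 to 0.06 and adjusted p-values of 0.988 or more in edgeR's quasi-likelihood test.

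**Figure D4:**
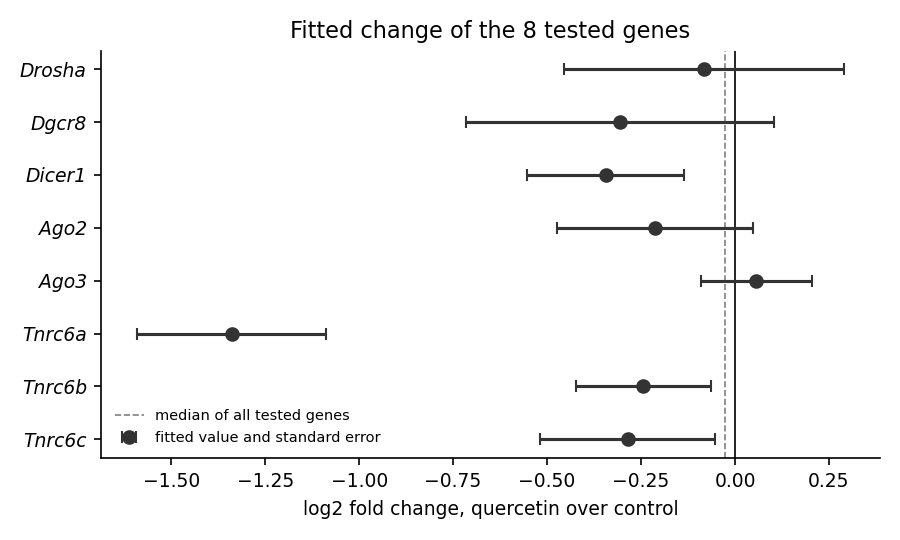
Fitted log2 fold change, quercetin over control, of the 8 tested genes from edgeR's quasi-likelihood fit, with standard errors. The dashed line is the median of all tested genes (-0.03). *Tnrc6a* lies at -1.34, and the other genes lie between -0.34 and 0.06.

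Whether *Tnrc6a* was called depended on the test. The adjusted p was 0.573 in edgeR's quasi-likelihood test. DESeq2 gave an adjusted p = 0.0178, edgeR's likelihood ratio test an adjusted p = 0.0173 and edgeR's exact test an adjusted p = 0.0192. Under the same criteria these tests called 0.103% of 10670 genes with an adjusted p, and 0.135% and 0.135% of 11842 tested genes. Over the 17 fits, those without 1 or more pools included, the log2 fold change ran from -1.44 to -1.10. It was largest without control pool 2 and smallest without control pool 1, the pool with the highest *Tnrc6a* level. The adjusted p ran from 0.0173 to 0.999 across these tests. The fits reuse the same counts, and the groups of *Tnrc6a* do not overlap, so its sign could not change. This range is a description and not repeated support.

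**Figure D5:**
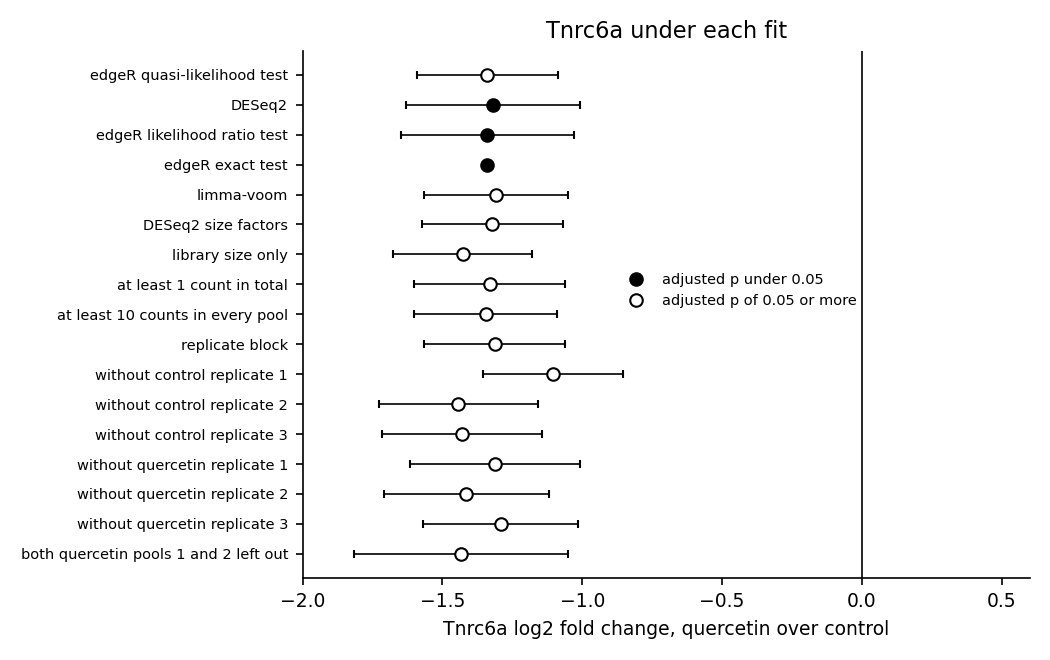
Log2 fold change of *Tnrc6a*, quercetin over control, under each of 17 fits, with standard errors where the method gives them. Filled points mark an adjusted p under 0.05, which was reached with DESeq2, edgeR's likelihood ratio test and edgeR's exact test.

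Genes whose level over the 6 pools was most like that of *Tnrc6a* were sought among 7924 tested genes with at least 5 CPM. The highest Pearson correlations of log2 CPM with *Tnrc6a* were those of *Fam220a* (0.990), *Suco* (0.988), *Suv39h2* (0.986), a histone H3 lysine 9 methyltransferase gene, *Gm5809* (0.981) and *Ptp4a1* (0.979), a protein tyrosine phosphatase gene. These values rest on 6 pools that share the group difference and describe the likeness only. The sizes differed, from a log2 fold change of -0.18 (standard error 0.12) for *Suco* to -1.02 (standard error 0.18) for *Ptp4a1*. How much sequence these genes share with others was not measured here. Among the members themselves, *Tnrc6a* had a correlation of 0.787 with *Tnrc6c* and of 0.677 with *Tnrc6b*, and *Dicer1* one of 0.790 with *Tnrc6b*.

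The other genes of the pathway were taken as 6 lists of 50 genes, of which 46 were tested. None was called at an adjusted p under 0.05 by edgeR's quasi-likelihood test, and 1 of the 46 had an unadjusted p under 0.05, or 2.17%, beside 4.03% of all tested genes. Their median log2 fold change was -0.08. Of 8 nuclear helpers and export genes 7 were tested (median -0.26), and of 6 chaperones that load Argonaute all 6 (median -0.10). Of 10 genes for tailing and turnover of small RNAs 9 were tested (median -0.15). Pools did not overlap between the groups, in TMM-scaled CPM, for 3 of the 46 with quercetin lower (*Cnot3*, *Khsrp* and *Eif4e2*) and 2 with quercetin higher (*Cnot2* and *Ahsa1*), beside 5.17% and 5.42% of all tested genes. Among the nuclear helpers, *Khsrp*, an RNA-binding protein that aids processing of some microRNA precursors, had 367, 313 and 441 counts in the control pools against 287, 320 and 213 in the quercetin pools. The *Khsrp* pools did not overlap in CPM, with quercetin lower (log2 fold change -0.42, standard error 0.21, adjusted p = 0.988 in edgeR's quasi-likelihood test).

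The double-stranded RNA binding partners of Dicer1 had few counts. Their levels per kb are not given here, so they are not set against that of *Dicer1*. *Tarbp2*, which helps Dicer1 pass its product to Argonaute, had 8, 28 and 6 counts in the control pools against 7, 12 and 8 in the quercetin pools. *Prkra*, the other such partner, had 4, 0 and 0 counts in the control pools against 5, 4 and 2 in the quercetin pools. Neither passed the filter of the main fit, and fitted with every gene of at least 1 count they had log2 fold changes of -0.62 (standard error 0.61) for *Tarbp2* and 1.43 (standard error 1.18) for *Prkra*, with adjusted p = 0.834 for each in edgeR's quasi-likelihood test. The other 2 genes of this list of 4 had a median log2 fold change of -0.23. The export receptor gene *Xpo5*, which carries hairpins out of the nucleus, was present at 6.42 CPM on average.

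The deadenylase subunits that TNRC6 proteins recruit ranged from 23.6 CPM on average for *Cnot1* to 2046 CPM for *Cnot7*, and all 10 were tested (median log2 fold change 0.18, from -0.78 to 0.31). *Cnot3*, a scaffold subunit of the CCR4-NOT deadenylase, was the pathway gene with the smallest p. It had 736, 676 and 693 counts in the control pools against 338, 390 and 472 in the quercetin pools. The groups did not overlap, with 80.6 ± 2.38 CPM in control and 46.9 ± 7.51 CPM in quercetin pools (SD, n = 3), but its log2 fold change of -0.78 (standard error 0.17) had an adjusted p = 0.792 in edgeR's quasi-likelihood test. The catalytic subunit gene *Cnot7* stood at 1836 ± 337 CPM in control and 2255 ± 227 CPM in quercetin pools (SD, n = 3), and its paralogue *Cnot8* at 186 ± 24.3 and 231 ± 25.5 CPM. The subunit gene *Cnot2* stood at 99.7 ± 12 and 121 ± 12.6 CPM (SD, n = 3). Of these genes the pools of *Cnot2* did not overlap, with quercetin higher, and each had an adjusted p of 0.988 in edgeR's quasi-likelihood test.

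Among 12 repressor and decapping genes, all tested (median log2 fold change -0.08), *Dcp2*, the mRNA decapping enzyme, had 1318, 1424 and 1517 counts in the control pools against 683, 817 and 1433 in the quercetin pools. Its low pools were quercetin 1 and 2, as for *Dicer1*, and quercetin pool 3 lay among the controls. The log2 fold change of *Dcp2* was -0.51 (standard error 0.26, adjusted p = 0.988 in edgeR's quasi-likelihood test).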

How the data were processed

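RNA was sequenced from 3 control and 3 quercetin pools after a smart-seq HT library. The authors aligned reads to GRCm38.91 with Hisat2, per the paper's methods, while the submitters' processing notes name CASAVA 1.8 and TopHat2 2.0.6. The deposited values are raw counts per Ensembl gene, not normalized or pooled. The counting program and its use of strand are not given in the sources used here. Groups and replicate numbers came from the sample titles, and symbols from Ensembl names (53274 of 53465 IDs matched).

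Genes passing filterByExpr (minimum count 10, 11842 genes) were scaled by TMM and fitted with edgeR 4.0.16 (glmQLFit, glmQLFTest, no covariate, Benjamini-Hochberg adjustment over all tested genes) in R 4.3.3. The criteria were those of the paper, adjusted p-values under 0.05 with more than a 2-fold change. At these criteria the paper reported genes changed in both directions, while the main test here called 0% of the tested genes. The RNA sequencing methods of the paper do not name its test. DESeq2 1.42.0 and limma 3.58.1 served as alternatives. A standard error is the log2 fold change divided by the square root of F. Ratios between neighbours in the order of levels used 0.5 added counts, while the other ratios between genes used the counts as they were. Lengths were GENCODE M21 exon unions, and scipy 1.17.1 was used. Correlations used log2 CPM with a prior count of 2. The fit was also run on simulated data, and no statement on its power is drawn from that run here. No libraries were duplicates by a chi-square comparison of counts (15.4 to 36.4 per degree of freedom).

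Members and lists were chosen with earlier results of these data known. All members were named, and of the pathway lists the 6 genes with smallest p at 5 CPM or more, plus the 5 genes most like *Tnrc6a*. *Tarbp2*, *Prkra*, *Xpo5*, *Eif4e2*, *Ahsa1*, *Cnot1*, *Zp2* and *Ooep* were named after their values were seen.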

Additional observations from a re-analysis of the deposited data

How the results depend on the processing

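No member was called in the main test or with 1 pool left out (0 to 0), and 1 member, *Tnrc6a*, was called with DESeq2, with edgeR's likelihood ratio test and with edgeR's exact test (log2 fold changes -1.32, -1.34 and -1.34). An unadjusted p under 0.05 gave 1 member, with or without the fold change criterion, and 1 pathway gene without it. Leaving out each pool gave a log2 fold change of *Tnrc6a* from -1.44 to -1.10, a difference in its share of *Tnrc6* counts from -11.2 to -8.46 percentage points (-10.0 with all pools), a difference in the *Ago2* share from -1.78 to -0.01, and 4 or 5 neighbouring pairs in order in every pool. Counted per kb the *Tnrc6a* share differed by -13.4 percentage points, by construction of the unit. Leaving out each pool also gave 0 or 1 called pathway genes, the 1 being *Ncbp2* without quercetin replicate 3 (log2 fold change -1.56).

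The sign was not stable for *Ago3* (-0.031 by library size only, and -0.011 to 0.15 with 1 pool left out, lowest without control replicate 2) or *Drosha* (-0.54 to 0.11 with 1 pool left out). With 1 pool left out, the log2 fold change ran from -0.62 (without quercetin replicate 3) to -0.21 (without quercetin replicate 2) for *Dicer1*, from -0.55 to -0.072 for *Dgcr8*, from -0.32 to -0.0072 for *Ago2* and from -0.36 to -0.15 for *Tnrc6b*, so single pools moved these by over 1.5 times. Without quercetin pools 1 and 2, an alternative chosen after seeing the data, *Drosha* was at 0.55, *Dicer1* at 0.092 and *Ago3* at -0.070, and the cause was not tested. Same-numbered pools did not deviate together in each pair (correlations 0.296, 0.101 and -0.0303), so the numbers were not taken as a pairing. With the replicate number as a block, *Tnrc6a* was at -1.31 and 0 members and 0 pathway genes were called. Depth limits *Ago1*, *Ago4*, *Dgcr8*, *Tarbp2* and *Prkra*, which had under 30 counts in every pool.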
